A study of Mus musculus with 6 samples.

Results

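The genes that carry a Wnt signal to a cell and across its membrane were followed in ST-HSC, short-term hematopoietic stem cells, a multipotent bone marrow progenitor population with limited self-renewal. The 48 genes were chosen by name and all 48 were found among the 53677 gene symbols of the deposited table. They comprise 19 Wnt ligands, 10 Frizzled receptors, 2 LRP co-receptors, 3 alternative receptors, 3 LGR receptors and their 4 R-spondin ligands, 2 genes of ligand secretion, 3 Dishevelled transducers and 2 ubiquitin ligases that remove Frizzleds from the cell surface. Of the 6 mice, 3 carried dnTCF4, a TCF4 transcription factor that acts as a dominant negative (genotype label dnTCF4+/+), and 3 were wild-type (WT) (genotype label dnTCF4-/-), all on the C57BL/6J background. Cells of both genotypes were sorted by the same gate, Lin- ckit+ with CD48 present and CD150 absent, from marrow freed by grinding long bones, pelvis and spine. The sources used here do not give the age of the mice, the promoter that drives the transgene or the cells in which it is active.

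Wnt proteins are secreted glycoproteins. Porcn attaches a lipid to them and Wls, a carrier protein, escorts them to the surface of the cell that makes them. On the receiving cell they bind a Frizzled together with Lrp5 or Lrp6, Dishevelled is recruited, β-catenin is spared from destruction and acts in the nucleus with TCF/LEF factors, the step that dnTCF4 is made to block. Ryk, Ror1 and Ror2 are receptors linked to β-catenin-independent signalling. R-spondins bind LGR receptors and keep Rnf43 and Znrf3 from removing Frizzleds, so they raise a cell's sensitivity to Wnt. In marrow, stromal and bone cells are known as sources of Wnt ligands and R-spondins for blood progenitors.

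Promoter sequence is shown for the gene with the highest level, Wls, and for the 3 genes whose dnTCF4 and WT values did not overlap, Ror1, Fzd4 and Lgr4. Each stretch is the 250 bases before the RefSeq start, 5′ to 3′ on the plus strand of GRCm38.p6, and capitals mark the letters TCAAAG, a core of the TCF/LEF binding motif, or its reverse complement CTTTGA. The stretches lie at chr3:159839400-159839649 for Wls, chr4:100095541-100095790 for Ror1, chr7:89404116-89404365 for Fzd4 and chr2:109917397-109917646 for Lgr4.
Wls: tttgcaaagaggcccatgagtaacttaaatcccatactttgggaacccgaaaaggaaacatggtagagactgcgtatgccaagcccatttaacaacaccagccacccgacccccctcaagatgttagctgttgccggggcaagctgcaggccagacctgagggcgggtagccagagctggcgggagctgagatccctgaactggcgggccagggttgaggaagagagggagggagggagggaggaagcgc
Ror1: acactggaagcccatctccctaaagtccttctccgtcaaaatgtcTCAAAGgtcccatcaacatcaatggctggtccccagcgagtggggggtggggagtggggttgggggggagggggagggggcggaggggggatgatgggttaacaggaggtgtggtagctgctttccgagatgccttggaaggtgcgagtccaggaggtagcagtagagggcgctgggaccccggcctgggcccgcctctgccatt
Fzd4: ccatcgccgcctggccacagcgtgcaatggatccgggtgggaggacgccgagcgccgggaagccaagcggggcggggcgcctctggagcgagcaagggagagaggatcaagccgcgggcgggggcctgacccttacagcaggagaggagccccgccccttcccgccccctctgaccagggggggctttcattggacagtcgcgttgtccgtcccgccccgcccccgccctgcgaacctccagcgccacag
Lgr4: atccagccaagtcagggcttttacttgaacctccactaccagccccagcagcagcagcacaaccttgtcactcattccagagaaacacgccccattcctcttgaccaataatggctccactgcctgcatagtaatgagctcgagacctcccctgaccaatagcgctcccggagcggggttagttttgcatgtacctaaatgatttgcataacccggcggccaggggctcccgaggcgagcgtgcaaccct
The 6 letters occurred in the Ror1 stretch and in none of the other 3 shown. Of the 33 genes of the set with a promoter in the RefSeq table, 4 held them on either strand (12.1%), namely Fzd1, Ror1, Wnt5b and Wnt11, against 15.8% of 27025 genes with a promoter of the same length. A match in these windows describes the letters only.

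Levels are given in RPKM, reads per kilobase of exon scaled to library depth, and a gene whose 6 libraries averaged 1 RPKM or more was called detected. Values of a genotype are listed in the order of replicates 1, 2 and 3. The libraries held 57400000 to 110900000 counted reads in dnTCF4 and 61800000 to 67700000 in WT, as recovered from the values. Immunoglobulin transcripts took 0.705% to 1.49% of reads in dnTCF4 and 6.96% to 14.3% in WT, and RPKM divides by all counted reads, these included. Over the 11326 genes tested the median log2 fold change was 0.14, against -0.05 with median ratio scaling and 0.04 when immunoglobulin genes were dropped. Of the gate genes, Cd48 was at 1169, 999.8 and 1415 RPKM in dnTCF4 and 994.3, 813.4 and 895.1 in WT. Slamf1, which encodes CD150, was low but not at 0, at 0.744 to 1.18 RPKM in dnTCF4 and 0.792 to 1.15 in WT. Kit, the other gate gene, was at 35.5 to 97.1 RPKM in dnTCF4 and 47.3 to 83.7 in WT. These genes do not speak to the Lin- part of the gate, and markers of blood lineages, some at high levels, are given below. Tcf7l2, which encodes TCF4, was at 2.15, 1.99 and 2.80 RPKM in dnTCF4 and 1.56, 1.29 and 1.69 in WT (log2 fold change 0.39, limma adjusted p = 0.52), and the labels do not say whether transgene reads would be counted there.

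Few of these genes were detected in ST-HSC. A mean of 1 RPKM was reached by 5 of 48 (10.4%), against 42.5% of 21697 protein-coding genes, and the 5 were Wls, Znrf3, Lrp6, Dvl3 and Dvl1. The gene just inside the limit was Dvl1, with a mean of 1.04 RPKM, and the gene just outside was Fzd6, with 0.754. A further 32 genes had reads in at least 1 library, 19 of them in all 6, and 11 were listed at 0 in every library. Those 11 were Wnt1, Wnt3a, Wnt5a, Wnt7a, Wnt7b, Wnt8a, Wnt9b, Ror2, Rspo2, Rspo3 and Rspo4. In the shallowest library a count of 0 allows up to 3 reads, which is 0.00668 to 0.0299 RPKM for these genes depending on their length. This limit, like all read counts here, covers counting error only, since amplified reads are not independent molecules. In bulk RNA a low level in all cells and a higher level in a few cells cannot be told apart.

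**Figure D1:**
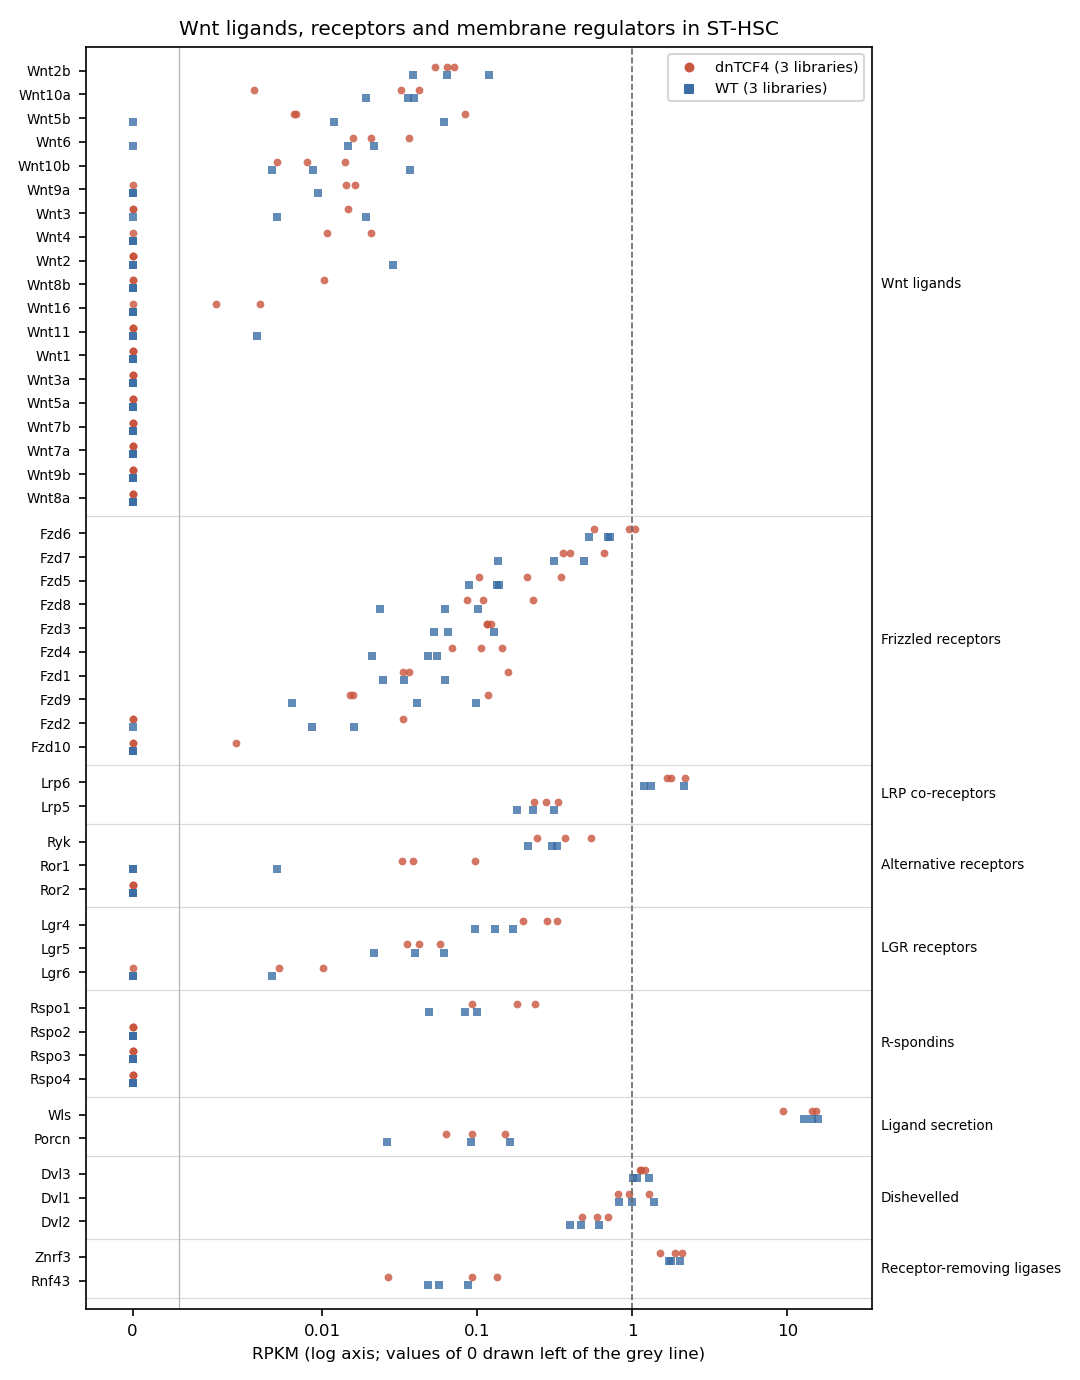
RPKM of all 48 genes (horizontal log axis) in the 3 dnTCF4 libraries (circles) and the 3 WT libraries (squares), grouped by family. The dashed line marks 1 RPKM, which 5 genes pass on average, and values of 0 are drawn left of the grey line.

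No Wnt ligand was detected. Of the 19, 7 were listed at 0 in all libraries, 9 had reads in some libraries and 3, Wnt2b, Wnt10a and Wnt10b, had reads in all 6. Wnt2b was the most abundant ligand, at 0.0642, 0.0537 and 0.0705 RPKM in dnTCF4 and 0.0637, 0.0385 and 0.120 RPKM in WT. The WT values spanned those of dnTCF4, and they stand for 17, 25 and 17 reads in dnTCF4 and 17, 10 and 34 reads in WT. Wnt10a was at 0.0321, 0.00365 and 0.0424 RPKM in dnTCF4 and 0.0191, 0.0394 and 0.0359 RPKM in WT. Wnt10b, a ligand known for its expression in blood and bone cells, had 3, 3 and 1 reads in dnTCF4 and 8, 1 and 2 reads in WT. For both genes the groups overlapped. Wnt5b was uneven within each genotype, with 14, 2 and 1 reads in dnTCF4 and 2, 0 and 11 reads in WT. Wnt4 had 0, 5 and 5 reads in dnTCF4 and 0 in all 3 WT libraries, and Wnt2 had 4 reads in WT replicate 2 and 0 elsewhere. Wnt3, Wnt6, Wnt9a, Wnt11 and Wnt16 had at most 6 reads in any library, and Wnt8b was at 0.0103 RPKM in dnTCF4 replicate 3 and 0 elsewhere. Of the 12 ligands with reads, 6 had a higher and 6 a lower mean in dnTCF4, the same split under median ratio scaling and when immunoglobulin genes were dropped. Summed over the family, Wnt ligands reached 0.244, 0.136 and 0.176 RPKM in dnTCF4 and 0.172, 0.126 and 0.245 RPKM in WT.

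The 2 genes of ligand secretion stood far apart in level. Wls was the most abundant gene of the set and lay above 68.5% of all genes tested. It was at 14.3, 15.4 and 9.45 RPKM in dnTCF4 and 12.8, 15.8 and 14.5 RPKM in WT. The groups overlapped, and dnTCF4 replicate 3 was the lowest of the 6 libraries. The means were 13.1 ± 3.17 RPKM in dnTCF4 and 14.3 ± 1.48 in WT (SD, n = 3 each), with a log2 fold change of -0.15 (SE 0.22, 95% confidence interval -0.67 to 0.37, limma adjusted p = 0.79). Without dnTCF4 replicate 3 the sign turned, to 0.052. Wls spans GRCm38 chromosome 3, 159839672 to 159938664. Alone it held 44.6% to 64.4% of the summed RPKM of the 48 genes in dnTCF4 libraries and 59.4% to 64.8% in WT libraries. Porcn, the acyltransferase of the same route, was at 0.0634, 0.0932 and 0.151 RPKM in dnTCF4 and 0.0262, 0.0917 and 0.162 RPKM in WT, from 5 to 33 reads a library. The order of Porcn values by replicate number was the same in both genotypes, and the groups overlapped.

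**Figure D2:**
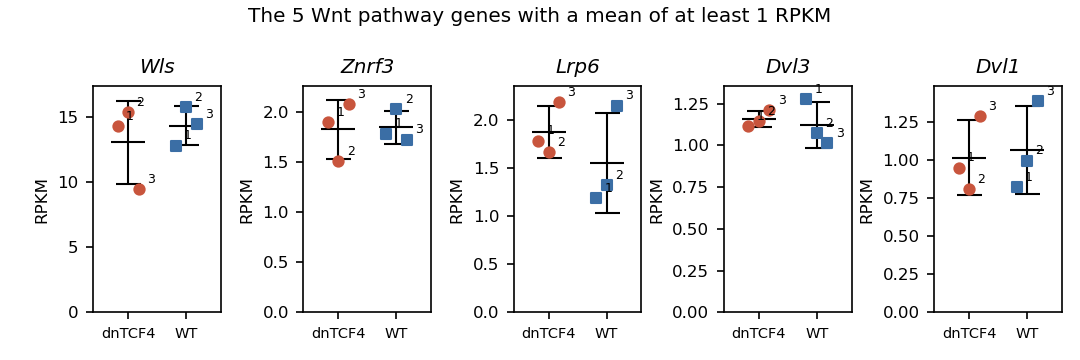
RPKM (vertical axes, from 0) of the 5 detected genes in dnTCF4 and WT libraries; points carry the replicate number, and bars give the mean and SD of 3 libraries. The groups overlap in every panel.

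All 10 Frizzled receptors had a mean below 1 RPKM. Fzd6, known for planar cell polarity in skin, was the highest at 1.04, 0.568 and 0.960 RPKM in dnTCF4 and 0.528, 0.719 and 0.702 RPKM in WT. Fzd7 followed at 0.357, 0.396 and 0.658 RPKM in dnTCF4 and 0.136, 0.314 and 0.489 RPKM in WT. The groups overlapped for Fzd6 and for Fzd7. Together these 2 receptors made up 63.2% to 69.2% of summed Frizzled RPKM in dnTCF4 libraries and 67.5% to 73.4% in WT libraries. Fzd5 was at 0.219 ± 0.121 RPKM in dnTCF4 and 0.120 ± 0.0274 in WT (SD, n = 3 each). Fzd8 was at 0.141 ± 0.0768 RPKM in dnTCF4 and 0.0623 ± 0.0390 in WT, and Fzd3 at 0.118 ± 0.00396 in dnTCF4 and 0.0825 ± 0.0409 in WT. Neighbours in this order of levels overlapped in their ranges. Fzd1 and Fzd9 each had their highest value in dnTCF4 replicate 1, at 0.159 and 0.118 RPKM, while Fzd2 and Fzd10 had reads in 3 libraries and 1 library. Exons of Fzd6 share 152 bases with Gm26704, a non-coding RNA gene, and those of Fzd5 share 1233 bases with Gm38058, an unclassified gene. Both lie on the opposite strand, and the library chemistry does not mark strand.

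Summed over the family, Frizzled transcripts were at 2.22, 1.39 and 2.54 RPKM in dnTCF4 and 0.946, 1.53 and 1.62 RPKM in WT. The groups overlapped, since dnTCF4 replicate 2 lay below WT replicates 2 and 3. All 10 receptors had a higher mean in dnTCF4, and under median ratio scaling, or when immunoglobulin genes were dropped, 9 of 10 did and Fzd9 did not. Of all genes with a mean under 1 RPKM and a value above 0, 64.0% had a higher mean in dnTCF4. This share was 55.2% after median ratio scaling and 59.2% when immunoglobulin genes were dropped. The summed ratio of dnTCF4 over WT was 1.50, and 1.28 after median ratio scaling.

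Among the 48 genes, 10 had a mean between 0.1 and 1 RPKM, and these were Fzd6, Fzd7, Ryk, Lrp5, Lgr4, Dvl2, Fzd5, Rspo1, Fzd8 and Fzd3. All 10 had a higher mean in dnTCF4 under each of the 3 scalings, while 66.8% of all genes in this range did in the deposited values, 52.1% after median ratio scaling and 58.9% when immunoglobulin genes were dropped. Among protein-coding genes in the range it was 69.8%. Of the 10, Lgr4 alone had groups that did not overlap, against 11.4% of all genes in the range with dnTCF4 higher and 2.86% with dnTCF4 lower. The direction of the 10 means is a description, since for 9 of them single libraries of the genotypes overlapped.

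**Figure D3:**
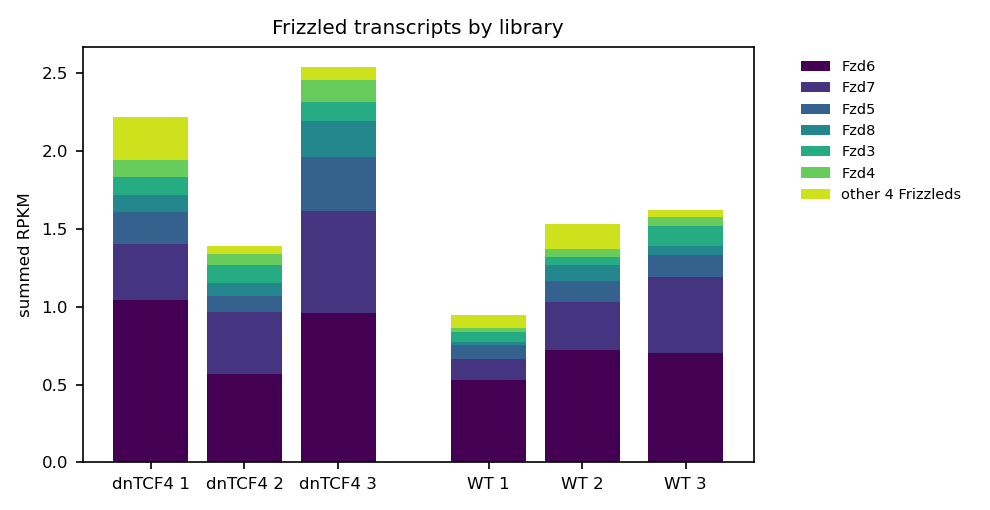
Summed RPKM of the Frizzled receptors (stacked bars, vertical axis from 0) in each dnTCF4 and WT library. Fzd6 and Fzd7 make up most of every bar, and the dnTCF4 replicate 2 bar (1.39) is lower than those of WT replicates 2 and 3 (1.53 and 1.62).

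Among receptors below 1 RPKM, Fzd4 had dnTCF4 and WT values that did not overlap. Fzd4, a receptor best known in blood vessel growth (GRCm38 chromosome 7, 89404355 to 89413134), was at 0.106, 0.0684 and 0.145 RPKM in dnTCF4 and 0.0211, 0.0482 and 0.0549 RPKM in WT. These values stand for 45, 51 and 56 reads in dnTCF4 and 9, 20 and 25 reads in WT. Ror1, a receptor tyrosine kinase that binds Wnt5a (GRCm38 chromosome 4, 100095791 to 100444765), was at 0.0385, 0.0329 and 0.0968 RPKM in dnTCF4 and 0, 0 and 0.00513 RPKM in WT. The 3 dnTCF4 libraries held 14, 21 and 32 reads and the WT libraries 0, 0 and 2. Per counted read, the 67 reads in dnTCF4 against 2 in WT gave a ratio of 27.9, which rests on those 2 WT reads. The same ratio was 2.35 for Fzd4 and 1.91 for Lgr4. These ratios pool the reads of the mice and describe genes picked by their values. Lgr4, an R-spondin receptor (GRCm38 chromosome 2, 109917647 to 110014257), was at 0.280, 0.198 and 0.329 RPKM in dnTCF4 and 0.0964, 0.171 and 0.131 RPKM in WT, from 104, 129 and 111 reads in dnTCF4 and 36, 62 and 52 reads in WT. For each of the 3 genes every dnTCF4 value was above every WT value, which is why they were picked. The exact two-sided permutation p of any such gene is 0.1, the smallest that 3 against 3 can give. It was fixed by that choice and adds nothing to it.

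These 3 genes were 9.38% of the 32 below 1 RPKM with reads, and 0 of the 32 had all dnTCF4 values below all WT values. Over all genes below 1 RPKM with a value, 7.41% had groups that did not overlap with dnTCF4 higher and 2.30% with dnTCF4 lower, so the share among the Wnt genes was near the background. With dnTCF4 higher the background was 5.06% after median ratio scaling and 5.64% when immunoglobulin genes were dropped, where the same 3 of 32 genes had separate groups. A limma voom fit on recovered reads, chosen after seeing the data, held the 16723 genes with at least 60 reads over the 6 libraries. It gave log2 fold changes of 1.30 for Fzd4 (SE 0.55, adjusted p = 0.55) and 0.98 for Lgr4 (SE 0.39, adjusted p = 0.51). Ror1, with 69 reads in all, entered this fit only through its dnTCF4 reads. Its log2 fold change of 4.37 there is a description, and its p-values are not given. The fit called 0 of the 19 genes of the set that it held, and 0.0897% of all its genes. Unadjusted p-values are not counted for this fit, since Ror1 passed its filter only through dnTCF4 reads. With the replicate number as a block 0.682% of its genes were called, and again 0 of the 19 were called. Over all read-level fits, those without 1 library included, the adjusted p ranged from 0.30 to 0.99 for Fzd4 and from 0.31 to 0.97 for Lgr4.

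Marker lists of other cell types were set beside these values, none of them tested as a list. Of 10 stroma and bone markers, 10 had a higher mean in dnTCF4 and 0 were at 0 in all libraries, while 69.4% of tested genes and 64.0% of genes below 1 RPKM had a higher mean in dnTCF4. Of the 10, 3 (Cxcl12, Lepr and Col3a1, all below 1 RPKM) had groups that did not overlap with dnTCF4 higher, against the 7.41% of genes below 1 RPKM. The shares are not quite alike, since 3 others of the 10 (Pdgfrb, Runx2 and Bglap) averaged 1 RPKM or more. Cxcl12, the chemokine of stromal niche cells, was at 0.431, 0.257 and 0.294 RPKM in dnTCF4 and 0.0732, 0.0356 and 0.00181 RPKM in WT. The summed level of the list overlapped between genotypes, at 21.7 to 43.9 RPKM in dnTCF4 and 17.3 to 23.7 in WT, and was mostly Pdgfrb and Runx2. Of 6 endothelial markers, 6 had a higher mean in dnTCF4 and 1 (Kdr) had groups that did not overlap, while the summed level overlapped, at 41.4 to 64.5 RPKM in dnTCF4 and 42.2 to 47.4 in WT. The endothelial marker Cdh5 was at 0 to 0.0332 RPKM in dnTCF4 and 0.00703 to 0.0154 in WT.

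Among blood lineages, summed levels were 24.1 to 31.7 RPKM in dnTCF4 and 5.60 to 11.1 in WT for 6 erythroblast markers, and 176.9 to 194.3 in dnTCF4 and 91.5 to 115.9 in WT for 6 megakaryocyte markers. In each of these lists 3 of 6 markers had groups that did not overlap with dnTCF4 higher, as had 3 of the 5 monocyte markers below. Of the 8 B and plasma cell markers below, 4 had groups apart with dnTCF4 lower. Groups did not overlap for 17.7% of all genes tested, both directions together. Among genes below 1 RPKM with a value it was 7.41% with dnTCF4 higher and 2.30% with dnTCF4 lower. For 5 monocyte markers the sums were 96.1 to 116.0 RPKM in dnTCF4 and 70.5 to 79.5 in WT, mostly from Cd68, while Csf1r averaged 4.96 RPKM in dnTCF4 and 7.14 in WT. For 8 neutrophil markers the sums were 3593 to 7480 RPKM in dnTCF4 and 932.6 to 3514 in WT, and when immunoglobulin genes were dropped they overlapped, at 3443 to 7185 in dnTCF4 and 1034 to 3579 in WT. Of these 8, S100a8 alone had groups that did not overlap, and Elane had a lower mean in dnTCF4, at 479.9 RPKM against 672.7 in WT. For 8 B and plasma cell markers the sums were 401.4 to 797.4 RPKM in dnTCF4 and 2726 to 7998 in WT, mostly from Jchain in WT, while Cd79b averaged 109.3 RPKM in dnTCF4 and 103.2 in WT. The sums of 6 T and NK cell markers overlapped, at 747.5 to 1168 RPKM in dnTCF4 and 992.8 to 1226 in WT. They came mostly from Nkg7, with a mean of 992.8 RPKM in dnTCF4 and 1091 in WT. Klrb1c averaged 2.71 RPKM in dnTCF4 and 1.78 in WT, and Cd3e, Cd3d, Cd8a and Cd4 each under 1 RPKM in both. The part of these cells in the values of Fzd4, Ror1 and Lgr4 was not tested, and more cells of a type and more RNA per cell cannot be told apart.

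**Figure D4:**
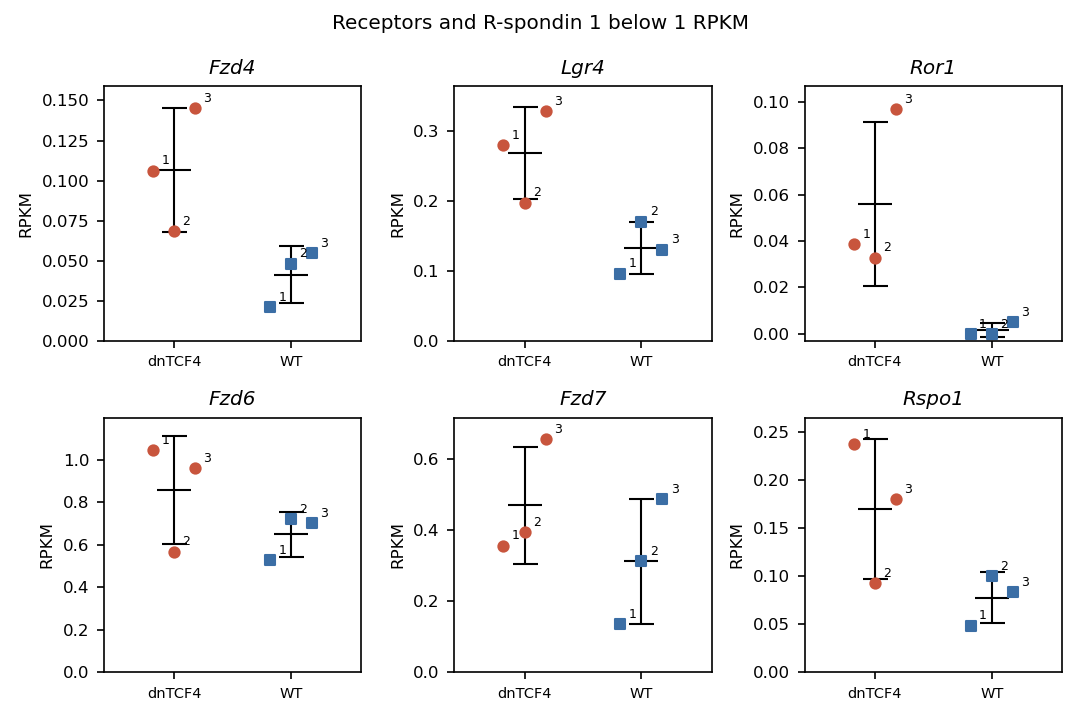
RPKM (vertical axes, each with its own range) of Fzd4, Lgr4, Ror1, Fzd6, Fzd7 and Rspo1 in dnTCF4 and WT libraries; points carry the replicate number, and bars give the mean and SD of 3 libraries. The groups are apart for Fzd4, Lgr4 and Ror1 and overlap for Fzd6, Fzd7 and Rspo1.

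Of the LRP co-receptors, Lrp6 was detected and Lrp5 was not. Lrp6 (GRCm38 chromosome 6, 134446476 to 134566965) was at 1.78, 1.67 and 2.18 RPKM in dnTCF4 and 1.19, 1.32 and 2.15 RPKM in WT. The groups overlapped, since WT replicate 3 lay among the dnTCF4 values. The means were 1.88 ± 0.270 RPKM in dnTCF4 and 1.55 ± 0.521 in WT (SD, n = 3 each), with a log2 fold change of 0.19 (SE 0.19, 95% confidence interval -0.26 to 0.63, limma adjusted p = 0.73). After median ratio scaling it was 0.05. Lrp5 was at 0.334, 0.232 and 0.279 RPKM in dnTCF4 and 0.181, 0.229 and 0.314 RPKM in WT. The level of Lrp6 exceeded that of Lrp5 5.35-fold to 7.82-fold in dnTCF4 libraries and 5.76-fold to 6.84-fold in WT libraries.

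Of the alternative receptors besides Ror1, Ryk, an inactive-kinase receptor of Wnts, was at 0.245, 0.539 and 0.369 RPKM in dnTCF4 and 0.212, 0.304 and 0.326 RPKM in WT. The groups overlapped. In the R-spondin branch, Rspo1 was the 1 ligand with reads, in all 6 libraries, at 0.237, 0.0931 and 0.180 RPKM in dnTCF4 and 0.0488, 0.1002 and 0.0838 RPKM in WT. Its dnTCF4 replicate 2 value lay below WT replicate 2, so the groups overlapped. Lgr5, a marker of gut stem cells and a target of the pathway there, was at 0.0355, 0.0580 and 0.0424 RPKM in dnTCF4 and 0.0399, 0.0615 and 0.0216 RPKM in WT. Lgr6 had at most 4 reads in any library.

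Of the receptor-removing ligases, Znrf3 was detected and Rnf43 was not. Znrf3 (GRCm38 chromosome 11, 5276324 to 5444847) was at 1.90, 1.51 and 2.08 RPKM in dnTCF4 and 1.79, 2.03 and 1.73 RPKM in WT, with overlapping groups. The means were 1.83 ± 0.293 RPKM in dnTCF4 and 1.85 ± 0.163 in WT (SD, n = 3 each), with a log2 fold change of -0.01 (SE 0.15, 95% interval -0.38 to 0.35, limma adjusted p = 0.97). Rnf43 was at 0.0266, 0.133 and 0.0930 RPKM in dnTCF4 and 0.0480, 0.0568 and 0.0878 RPKM in WT. Znrf3 exceeded Rnf43 11.3-fold to 71.4-fold in dnTCF4 libraries and 19.6-fold to 37.2-fold in WT libraries. Both genes are known in gut as targets of the pathway they restrain, and neither had groups that were apart here.

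The Dishevelled proteins, which pass the signal from Frizzleds into the cell, are encoded by 3 genes. Every library value of Dvl2 lay below those of Dvl1 and Dvl3, whose ranges overlapped. Dvl3 (GRCm38 chromosome 16, 20516982 to 20534010) was at 1.12, 1.14 and 1.21 RPKM in dnTCF4 and 1.28, 1.07 and 1.01 RPKM in WT, and its highest library exceeded its lowest 1.26-fold, the smallest such ratio among the 5 detected genes. The fold change of Dvl3 on the log2 scale was 0.03 (SE 0.13, 95% interval -0.29 to 0.34, limma adjusted p = 0.93), and -0.10 after median ratio scaling. Dvl1 (GRCm38 chromosome 4, 155847402 to 155859303) was at 0.949, 0.810 and 1.29 RPKM in dnTCF4 and 0.820, 0.995 and 1.38 RPKM in WT, with overlapping groups and a log2 fold change of -0.03 (SE 0.17, 95% confidence interval -0.43 to 0.36, limma adjusted p = 0.94). Dvl1 shares 36 exon bases with Tas1r3 on the opposite strand. Dvl2 was at 0.592, 0.472 and 0.703 RPKM in dnTCF4 and 0.398, 0.470 and 0.614 RPKM in WT, with overlapping groups, and 18.3% of its exon length is shared with Acadvl on the opposite strand. Of summed Dishevelled RPKM, Dvl3 held 37.9% to 47.2% in dnTCF4 libraries and 33.6% to 51.2% in WT libraries, and Dvl2 held 19.5% to 22.3% in dnTCF4 libraries and 15.9% to 20.4% in WT libraries. The sum was 2.76 ± 0.398 RPKM in dnTCF4 and 2.68 ± 0.286 in WT (SD, n = 3 each).

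Across the 5 detected genes, limma on log2(RPKM + 1) called 0 at an adjusted p under 0.05, with 0 at an unadjusted p under 0.05, while 0.300% of all genes tested were called. Values of the genotypes overlapped for all 5, whereas they did not overlap for 17.7% of all genes tested. The mean was higher in dnTCF4 for 2 of the 5, against 69.4% of all genes tested. With the replicate block 0 of 5 were called (0.433% of all genes), and voom on recovered reads called 0 of the 4 it held (0.131% of all genes). A limma fit down to a mean of 0.1 RPKM held 15 of the 48 genes and called 0, with 0 at an unadjusted p under 0.05 (0.159% of all genes called), and one without a filter held 37 and called 0, with 3 at an unadjusted p under 0.05 (0.0196% of all genes called, 7.53% at an unadjusted p under 0.05). The confidence intervals of the 5 reached from -0.67 to 0.63, so differences of that size remain possible. On this scale the fold change of a gene near 1 RPKM is understated.

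**Figure D5:**
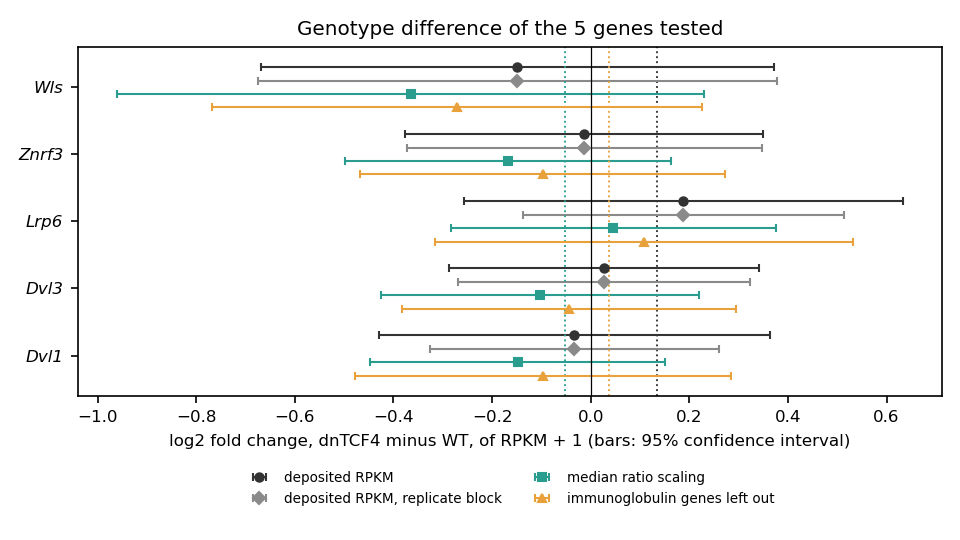
Log2 fold change of RPKM + 1 (horizontal axis, dnTCF4 minus WT) with its 95% confidence interval for the 5 genes tested, under 4 settings; dotted lines mark the median of all genes tested under 3 scalings (0.14, -0.05 and 0.04). Every interval includes 0.

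Other genes of the pathway were also mostly low or without a called difference. Of 116 genes in 6 lists of antagonists, polarity genes, membrane co-factors, receptor turnover genes, the cytoplasmic and nuclear core and direct targets, 52 were tested and 0 were called in either direction, with 3 at an unadjusted p under 0.05, as had 9.62% of all genes tested. The median over the 52 was 0.20 on the log2 scale, beside 0.14 for the 11326 genes, with 44 of 52 higher in dnTCF4, beside 68.5% of all genes tested. After median ratio scaling the median was 0.0076, beside -0.05 for all genes, with 28 of 53 higher, beside 41.4% of all genes. Of 23 secreted and membrane antagonists 2 were tested. They were Dkkl1, a relative of the Dickkopf antagonists, at 46.9, 21.5 and 9.03 RPKM in dnTCF4 and 24.1, 30.8 and 20.1 RPKM in WT, and Tmem131l at 3.48 ± 0.278 RPKM in dnTCF4 and 3.03 ± 0.754 in WT (SD, n = 3 each). The dnTCF4 values of Dkkl1 spanned those of WT.

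Of 22 polarity and non-canonical genes 8 were tested. Camk2d, a calcium-dependent kinase, was at 1.37 ± 0.276 RPKM in dnTCF4 and 0.930 ± 0.00797 in WT. Its WT mean was under 1 RPKM, so it entered the test only through its dnTCF4 values, and its p-value is not given. Nfatc1, a calcium-regulated transcription factor, was at 4.31 ± 0.618 RPKM in dnTCF4 and 3.28 ± 0.389 in WT (limma adjusted p = 0.62). Of 14 membrane co-factors 4 were tested, with Reck, which presents Wnt7 ligands to Frizzleds, at 1.68 ± 0.504 RPKM in dnTCF4 and 1.03 ± 0.245 in WT (limma adjusted p = 0.58). Sdc1, a heparan sulfate proteoglycan that also marks plasma cells, was at 1.51 ± 0.987 RPKM in dnTCF4 and 1.78 ± 0.315 in WT. Of 26 genes of receptor turnover 18 were tested, with Snx3, which returns Wls from endosomes, at 20.6 ± 4.31 RPKM in dnTCF4 and 15.1 ± 2.60 in WT (limma adjusted p = 0.60) and Cxxc5, which binds Dishevelled, at 8.95 ± 1.47 in dnTCF4 and 6.90 ± 0.545 in WT (adjusted p = 0.63). Of 25 core genes 17 were tested, with the smallest p for Tcf7l2 and for Aes, a short Groucho relative, at 5.27 ± 0.976 RPKM in dnTCF4 and 3.76 ± 0.485 in WT (limma adjusted p = 0.58). Of 12 direct targets 3 were tested, with Jun at 8.87 ± 1.51 RPKM in dnTCF4 and 3.99 ± 0.602 in WT (limma adjusted p = 0.14) and Cd44 at 62.9 ± 8.13 in dnTCF4 and 44.8 ± 8.50 in WT (adjusted p = 0.52). The targets Tcf7, Lef1 and Axin2 averaged under 1 RPKM in the deposited values and were not tested in the main fit. They are named here after their values were seen. After median ratio scaling 4 of the 12 direct targets were tested. Other untested targets are not given, so these 3 do not stand for the list. Tcf7, a TCF/LEF factor, was at 0.894, 0.278 and 0.232 RPKM in dnTCF4 and 2.79, 0.888 and 0.895 RPKM in WT, where dnTCF4 replicate 1 overlapped the WT values. Lef1, another TCF/LEF factor, was at 0.0361, 0.00616 and 0.00991 RPKM in dnTCF4 and 0.149, 0.0590 and 0.0319 RPKM in WT, again overlapping through dnTCF4 replicate 1. Axin2, a scaffold of the β-catenin destruction complex, was at 0.0778, 0.00655 and 0.0158 RPKM in dnTCF4 and 0.0372, 0.0265 and 0.0536 RPKM in WT. For Axin2 the groups overlapped, and dnTCF4 replicate 1 was the highest of the 6 libraries. All 3 had a lower mean in dnTCF4, while 64.0% of genes below 1 RPKM with a value had a higher one. The direction of these 3 is a description of genes picked by their values.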

How the data were processed

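Poly(A) RNA of sorted cells was sequenced in 6 libraries, 3 per genotype. The authors deposited 1 table of RPKM values. The submitters' processing notes name the builds GRCm38 and mm10 and the tools DESeq2, edgeR, featureCounts and STAR; the sources used here do not give their roles, versions or the gene annotation. Per the labels' protocols, cDNA was made with a SMART-Seq kit and libraries with Nextera XT.

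Union exon lengths came from GENCODE M21 (GRCm38). RPKM times length fell on whole reads within 0.02 for 94.4% to 95.2% of genes under 1000 reads, which gave the depths. Of the 48 genes 44 were whole in all libraries, and no reads are printed for Dvl3, Fzd6, Fzd8 and Wnt8b.

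Genes averaging 1 RPKM or more entered limma 3.58.1 as log2(RPKM + 1) (R 4.3.3, trend, two-sided, Benjamini-Hochberg over all genes), genotype as the only term. A fold change is dnTCF4 minus WT. The genes, lists and tests were chosen with earlier results of these data known. All 48 genes were accounted for, with detected genes and those with separate groups named by value, and up to 2 genes per further list by smallest p. Scripts were tested on simulated data. Replicates are taken as separate mice, per the series description. Same-numbered libraries deviated together (correlations 0.17, 0.35 and 0.30, all above 0.1), so fits with the replicate number as a block are given too. The labels name no batch. The main fit, which gave the printed intervals of the detected genes, ignores any pairing. With the block the SE of Lrp6 was 0.13, beside 0.19 in the main fit (limma adjusted p = 0.50 with the block). Tables and plots used Python 3.11.15, pandas 2.3.3, numpy 2.4.6, scipy 1.17.1 and matplotlib 3.10.9.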

Additional observations from a re-analysis of the deposited data

How the results depend on the processing

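Of the 48 genes, 0 were called in any other fit of the deposited values or of reads, including those on genes with at least 60 recovered reads, which were chosen after seeing the data. The replicate block changed no call among the 48 (0 called). It raised the count over all genes from 34 to 49, and from 15 to 114 in the added read-level fit. That count over all genes was 18 after median ratio scaling, 0 with immunoglobulin genes left out (647 at an unadjusted p under 0.05), 6 without a filter, 86 with array weights, 14 by voom, and 7 to 34 with 1 library left out. Of the 5 tested genes 2 were higher in dnTCF4, against 1 after median ratio scaling, quantile scaling, by voom (of 4) or with immunoglobulin genes left out, 0 of 1 at a mean of at least 5 RPKM, 12 of 15 at 0.1 RPKM, 28 of 37 without a filter and 1 to 4 with 1 library left out. The sign of Dvl3 turned after median ratio (-0.10) and quantile scaling (-0.057), with immunoglobulin genes left out (-0.044) and without WT replicate 3 (-0.01). It turned for Wls without dnTCF4 replicate 3 (0.052), for Dvl1 without dnTCF4 replicate 2 (0.040), and for Znrf3 without dnTCF4 replicate 2 (0.071) or WT replicate 2 (0.033). With 1 library left out Lrp6 ranged from 0.086 to 0.35, Wls from -0.27 to 0.052, Dvl1 from -0.12 to 0.040 (without dnTCF4 or WT replicate 3 it averaged under 1 RPKM and was not tested), Dvl3 from -0.01 to 0.079 and Znrf3 from -0.077 to 0.071. Ror1 ranged from 3.97 to 5.11 over the read-level fits, a description since it entered them only through its dnTCF4 reads. Detected genes numbered 1 at a mean of at least 2 RPKM and 21 with more than 3 reads in each library. The summed RPKM ratio of dnTCF4 over WT moved for Wnt ligands to 0.732 (quantile), for Dishevelled to 0.874 (median ratio) and 0.905 (quantile), and for the ligases to 0.842 and 0.878. The cause was not tested. Depth limits the ligands, all of which but Wnt2b and Wnt5b had under 10 reads in every library.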
